A study of Mus musculus with 10 samples.

Results

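The genes described here encode potassium channel subunits. They are the protein-coding genes of the deposited table whose symbol begins with Kcn, without Kcnj10, and they number 93 of 55487 genes. They were measured by RNA sequencing in 10 libraries of GFP-positive cells sorted by flow cytometry from mouse brain. In the group NC-GFP (n = 3) the mice carried CamKIIcre/- and received AAV-FLEX-GFP, an adeno-associated virus whose GFP cassette is switched on by Cre. In TDP-43cKO-GFP (n = 3) the mice were TDP-43flox/flox::CamKIIcre/- and received the same virus. In TDP-43cKO-TDP-43mNLS (n = 4) mice of that genotype received AAV-FLEX-TDP-43mNLS-GFP. The mutant groups are written cKO-GFP and cKO-mNLS. The viruses were injected into the dentate gyrus of the hippocampus, and cells were sorted 1 month later. All groups therefore share CamKII-Cre, a driver of excitatory forebrain neurons, and a virus, and no group lacks them. Each library was a pool from 3 to 4 animals made from 1 ng of RNA, so p-values measure the spread between pools. The sources used here do not give ages, sort gates or the part of the TDP-43 gene that is removed. The series concerns TDP-43, an RNA-binding protein, in neurons and its bearing on myelin.

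Potassium channels let potassium leave or enter the cell along its gradient and so set the resting potential, end action potentials and limit repeated firing. The symbols follow the type of pore. Kcna to Kcnd, Kcnh and Kcnq encode voltage-gated pores, Kcnj inward rectifiers, Kcnk tandem-pore leak channels, and Kcnma, Kcnn and Kcnt channels opened by calcium or sodium. Kcnf, Kcng, Kcns and Kcnv encode silent subunits that form no channel alone, and Kcnab, Kcne, Kcnip and Kcnmb encode accessory proteins. Neurons use most of them, while astrocytes, microglia, lymphocytes and the choroid plexus each use a few.

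Library totals lay between 17164162 and 29204279 counts. Levels are given as CPM, counts scaled by each library's total over the tested genes and by the TMM factor that edgeR fitted to it. Tardbp, which encodes TDP-43, stood at 131 ± 11.3 CPM (SD, n = 3) in NC-GFP, 117 ± 7.75 (n = 3) in cKO-GFP and 237 ± 68.5 (n = 4) in cKO-mNLS. Which reads of the gene or of the virus enter that count is not given, so it does not check the genotype labels. The sorted cells were not purely neuronal. The summed level of 16 pan-neuronal markers was 216 to 238 CPM across NC-GFP, 239 to 338 across cKO-GFP and 810.5 to 2302 across cKO-mNLS. That of 12 oligodendrocyte markers was 11296 to 16999 CPM across NC-GFP, 8653 to 16009.7 across cKO-GFP and 4845 to 14886 across cKO-mNLS.

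Potassium channel genes were higher as a group in cKO-mNLS than in either group given GFP alone, and few passed the test between those. Of the 93 genes, 79 had enough counts to be tested, 68 of them at a mean of at least 1 CPM in cKO-mNLS against 44 in NC-GFP and 50 in cKO-GFP. In cKO-mNLS against cKO-GFP, 42 rose and 2 fell by edgeR's quasi-likelihood test at an adjusted p under 0.05. Of all 20379 genes tested, 16.1% were called there, 8.93% higher and 7.13% lower. In cKO-mNLS against NC-GFP, 35 rose and 1 fell, where 11.5% of all genes were called, 8.23% higher and 3.25% lower. In cKO-GFP against NC-GFP, 1 rose and 4 fell, where 1.63% of all genes were called, 0.530% higher and 1.10% lower. The median log2 fold change of the 79 tested was 1.77, 2.14 and -0.14 in these comparisons, and that of all genes was -0.01, -0.02 and 0.04. A gene that passed the filter on low counts only through cKO-mNLS had to be higher there, and 49 of the 79 held at least 1 CPM in at least 6 libraries. With testing limited to genes at that level, 29 rose and 2 fell against cKO-GFP, and 22 rose and 1 fell against NC-GFP. The share of all genes called at that level is not given here. The cKO-mNLS libraries can supply most of the 6, so this filter still favours genes that are high there.

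The 2 comparisons of cKO-mNLS share its 4 libraries. In both, 32 genes rose, 10 rose against cKO-GFP and were not called against NC-GFP, and 3 (Kcnab2, Kcnc2 and Kcne2) rose against NC-GFP and were not called against cKO-GFP. The 2 comparisons differ by that of cKO-GFP against NC-GFP, in which Kcnab2, Kcnk1, Kcnn2 and Kcnn3 of these genes were called. Of the 79 tested genes, 48 had no overlap of the libraries of cKO-mNLS and cKO-GFP, in either direction, and 41 had none against NC-GFP. Among all genes, 25.7% and 24.7% had none. Of the 42 that rose against cKO-GFP, 41 had no overlap, as had all 35 that rose against NC-GFP, but the call itself favours such genes. Without cKO-GFP replicate 3 the 44 calls against cKO-GFP became 24, all higher. The 5 calls of cKO-GFP against NC-GFP became 1 without NC-GFP replicate 1, NC-GFP replicate 2 or cKO-GFP replicate 3, 2 without cKO-GFP replicate 1 and 8 without cKO-mNLS replicate 4. Without NC-GFP replicate 3 none of the 5 kept its call, and Kcnn3 stood at an adjusted p of 0.0527.

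**Figure D1:**
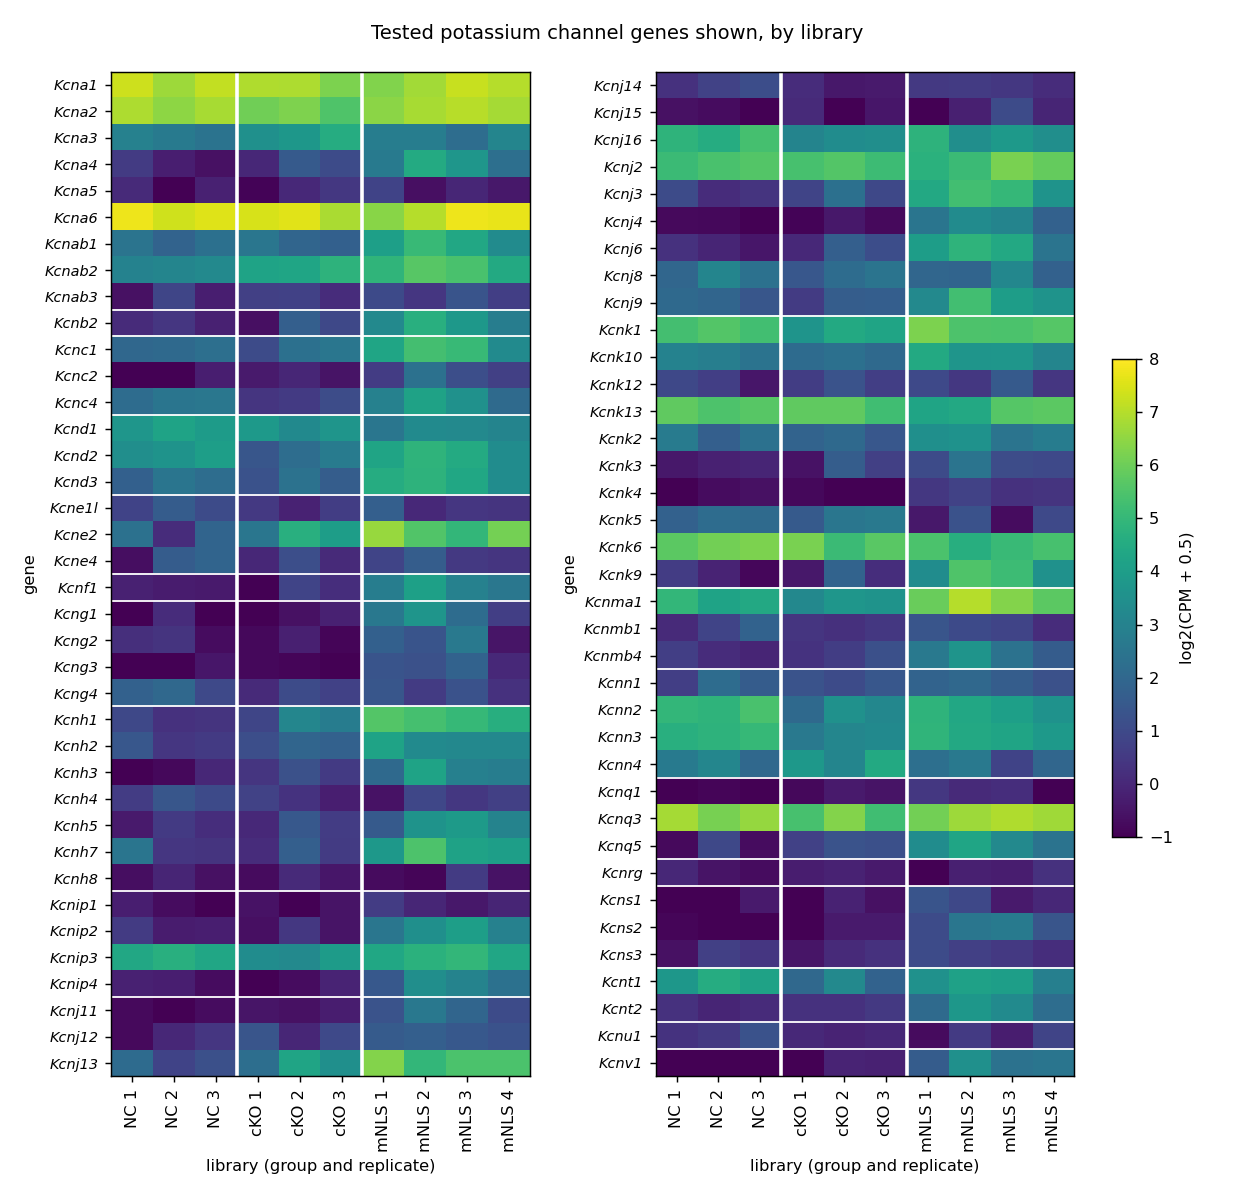
Colour shows log2(CPM + 0.5) of the tested potassium channel genes shown (rows, in order of symbol, white lines between subfamilies) in each of the 10 libraries (columns; NC is NC-GFP, cKO is cKO-GFP, mNLS is cKO-mNLS). Kcna1, Kcna2 and Kcna6 are bright in every library, while genes such as Kcnh1, Kcnd3 and Kcnj3 are brighter in the 4 cKO-mNLS libraries.

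The rise went with pan-neuronal markers. Of 16 pan-neuronal markers, 14 rose in cKO-mNLS against cKO-GFP (median log2 fold change 3.12), 15 rose against NC-GFP (4.06), and 1 rose in cKO-GFP against NC-GFP (0.90). None of the 16 was at 0 in every library of a group. Their summed level in the 4 cKO-mNLS libraries was 1035, 2302, 1429 and 810.5 CPM. Of the 42 risen channel genes, 27 were highest in replicate 2, the library with the highest pan-neuronal sum. In replicate 4, the library with the lowest such sum, 26 were lowest. How often these libraries are highest or lowest among all genes is not given here, so the counts cannot be set against a background. Replicate 2 also had the lowest total of its group, at 19826477 counts. Lists of neuron types did not show the same rise in their sums. That of 10 dentate granule neuron markers was 733 to 884 CPM across NC-GFP, 565 to 800 across cKO-GFP and 596 to 981 across cKO-mNLS. Of these markers 4 rose in each comparison of cKO-mNLS and 0 fell. The sum of 10 inhibitory neuron markers was 24.2 to 37.4, 19.9 to 36.2 and 5.68 to 26.8 CPM in these groups. The part of neuronal content in the rise was not tested. In such pooled RNA fewer cells of a type and less RNA per cell cannot be told apart.

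**Figure D2:**
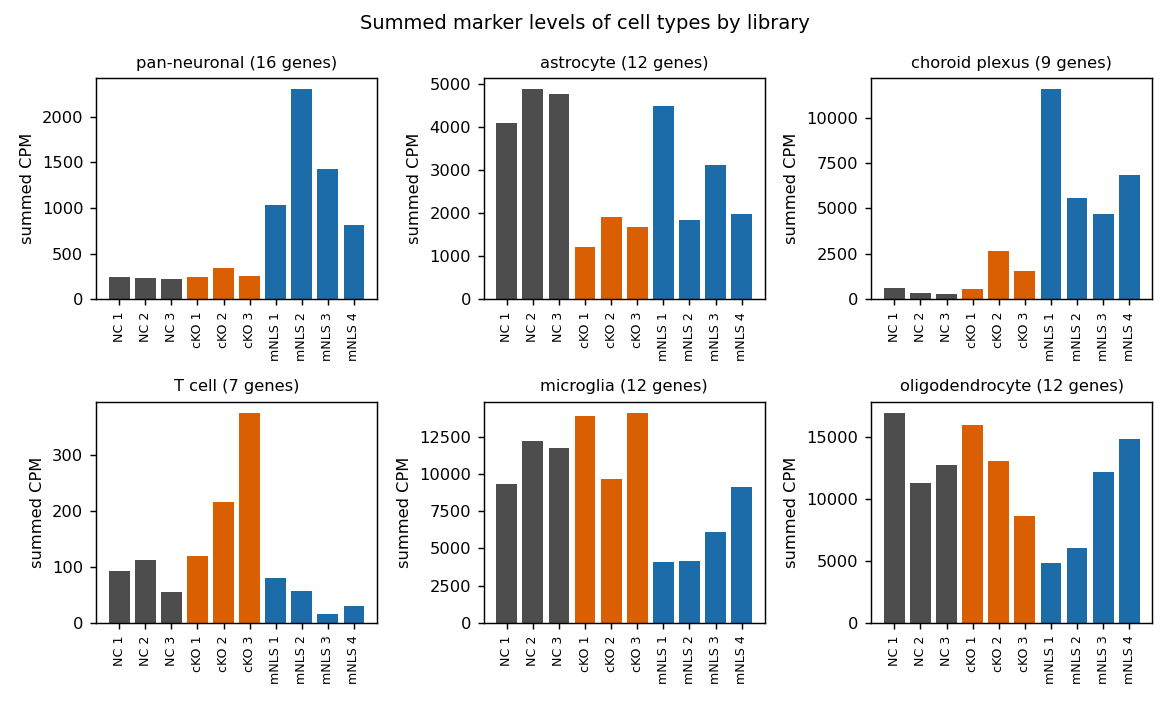
Bars give the summed CPM of each marker list in each library (NC is NC-GFP, cKO is cKO-GFP, mNLS is cKO-mNLS). Pan-neuronal sums are 810.5 to 2302 in cKO-mNLS against 216 to 338 in the other groups, choroid plexus sums are higher in each cKO-mNLS library than in any other, and astrocyte sums are 1214 to 1909 in cKO-GFP against 4096 to 4875 in NC-GFP, with cKO-mNLS overlapping both.

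Levels of different genes were compared per length, as TPM, which also divides by transcript length. In NC-GFP the highest were Kcna1 (16.9 ± 7.10 TPM; SD, n = 3), Kcna6 (16.0 ± 6.15), Kcnk1 (9.41 ± 1.05), Kcnk13 (8.50 ± 3.20), Kcnk6 (7.49 ± 1.70) and Kcnn2 (6.65 ± 2.78). Kcna1 and Kcna6 differed by less than their spread, as did each of the next 4 from its neighbour. In cKO-GFP Kcna6 (12.4 ± 4.65 TPM; SD, n = 3), Kcna1 (11.5 ± 4.12) and Kcnk13 (7.17 ± 2.68) led, and Kcnk1 stood at 3.28 ± 1.04. In cKO-mNLS the first were Kcnj13 (24.9 ± 13.8 TPM; SD, n = 4) and Kcne2 (22.6 ± 13.6), then Kcna6 (14.7 ± 5.77), Kcna1 (14.6 ± 3.10), Kcnk1 (13.1 ± 4.95) and Kcnab2 (11.2 ± 3.44), again with neighbours closer than their spread. The TPM of all 93 genes summed to 84.6 to 148 across NC-GFP, 70.8 to 115 across cKO-GFP and 216 to 279 across cKO-mNLS.

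**Figure D3:**
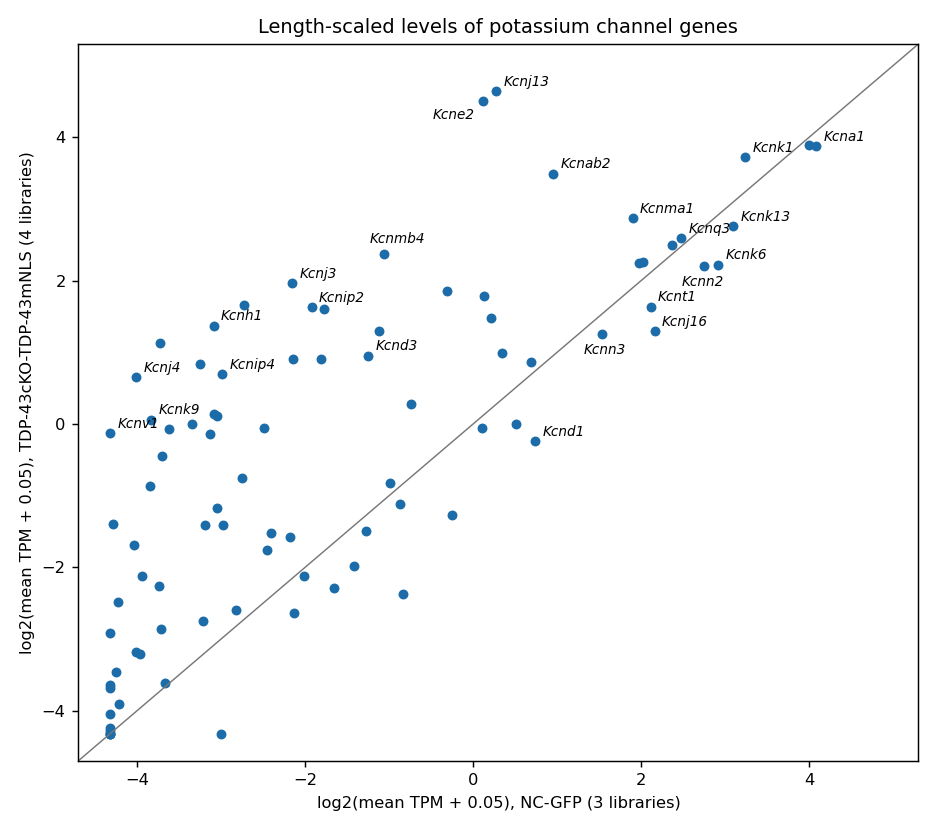
Each point is 1 potassium channel gene, placed by log2(mean TPM + 0.05) in NC-GFP (x axis, 3 libraries) and cKO-mNLS (y axis, 4 libraries), with the line of equal values. Kcna1 lies close to the line, high in both groups, and Kcnj13 and Kcne2 lie highest in cKO-mNLS, far above the line.

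The Kcna genes encode voltage-gated channels of axons and terminals, and Kcnab genes encode their cytoplasmic beta subunits. The most abundant Kcna genes differed little: Kcna1, Kcna2 and Kcna6 were high in all groups, and only Kcna2 passed a test. Of 11 genes 9 were tested. Against cKO-GFP, Kcna2, Kcna4 and Kcnab1 rose in cKO-mNLS and Kcna3 fell. Against NC-GFP, Kcna4, Kcnab1 and Kcnab2 rose, and Kcnab2 also rose in cKO-GFP.

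Kcna1 stood at 159.8, 102 and 142 CPM in NC-GFP, at 120.2, 119 and 74.4 in cKO-GFP and at 77.1, 107, 151 and 129 in cKO-mNLS. The groups overlap throughout (log2 fold change of 0.15, SE 0.247, adjusted p = 0.742 in cKO-mNLS against cKO-GFP; -0.22, SE 0.247, adjusted p = 0.651 against NC-GFP). Kcna6 stood at 217, 163 and 187 CPM in NC-GFP, at 176, 192 and 115 in cKO-GFP and at 84.9, 128, 217 and 209 in cKO-mNLS, with overlapping groups as well (-0.01 and -0.24, adjusted p = 0.986 and 0.681). An antisense gene covers 39.6% of the exonic bases of Kcna6, and the use of strand in counting is not given, so its value is uncertain. Kcna2 stood at 119, 87.6 and 112 CPM in NC-GFP, at 65.1, 76.8 and 45.1 in cKO-GFP and at 86.6, 113, 131 and 109.6 in cKO-mNLS, lowest in every cKO-GFP library (log2 fold change of 0.82, SE 0.198, adjusted p = 0.0181). Kcnab2 stood at 7.40, 8.04 and 8.92 CPM in NC-GFP, at 18.03, 19.0 and 27.4 in cKO-GFP and at 28.9, 50.1, 42.5 and 21.5 in cKO-mNLS. It was lower in each NC-GFP library than in any other (1.40, SE 0.293, adjusted p = 0.0418 in cKO-GFP against NC-GFP; 2.14, SE 0.274, adjusted p = 0.00122 in cKO-mNLS against NC-GFP). Kcnab1 stood at 5.06, 3.18 and 4.52 CPM in NC-GFP, at 5.31, 3.35 and 2.91 in cKO-GFP and at 16.3, 32.6, 20.4 and 9.65 in cKO-mNLS, highest in the 4 cKO-mNLS libraries (log2 fold change of 2.35, SE 0.377, adjusted p = 0.00394). Kcna4, a fast-inactivating channel, lay at 0.170 to 2.39 CPM in the groups given GFP alone and at 4.43 to 22.1 in cKO-mNLS.

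Kcna3 moved the other way. It encodes a channel of T cells that microglia also use, and it stood at 7.27, 6.09 and 4.91 CPM in NC-GFP, at 10.9, 13.1 and 23.1 in cKO-GFP and at 6.61, 6.46, 4.10 and 8.11 in cKO-mNLS. The 3 cKO-GFP libraries are the highest, replicate 3 most of all, and cKO-mNLS overlaps NC-GFP (log2 fold change of -1.31, SE 0.313, adjusted p = 0.0157). Of 7 T cell markers, chosen after their values were seen, 7 fell in the same comparison, and their summed level was 55.4 to 112 CPM across NC-GFP, 119 to 376 across cKO-GFP and 15.9 to 80.5 across cKO-mNLS. Of 12 microglia markers 8 fell, at 9322 to 12173 CPM across NC-GFP, 9667 to 14109 across cKO-GFP and 4064 to 9137 across cKO-mNLS. None of them was at 0 in every library of a group, and their part in the result was not tested. Kcna2 and Kcna3 were not called in cKO-mNLS against cKO-GFP without cKO-GFP replicate 3 (adjusted p = 0.0612 and 0.140). Kcna4 was not called in cKO-mNLS against cKO-GFP without cKO-GFP replicates 1 or 3 (adjusted p = 0.0726 and 0.0951). Kcna4 came to a log2 fold change in cKO-mNLS against cKO-GFP of 3.51 without cKO-GFP replicate 2. Kcnab2 was not called in cKO-GFP against NC-GFP without NC-GFP replicates 1, 2 or 3 or cKO-GFP replicates 1 or 3 (adjusted p from 0.0763 to 0.211).

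Kcnb genes encode slow delayed rectifiers clustered on neuronal cell bodies. Kcnb2 stood at 0.585, 0.843 and 0.395 CPM in NC-GFP, at 0.141, 2.83 and 1.42 in cKO-GFP and at 8.90, 25.3, 13.3 and 6.58 in cKO-mNLS, and the 4 cKO-mNLS libraries stand clear of the other 6 with replicate 2 highest (log2 fold change of 3.21, SE 0.703, adjusted p = 0.0183 against cKO-GFP; 4.44, SE 0.754, adjusted p = 0.00631 against NC-GFP). Kcnb2 was not called in cKO-mNLS against cKO-GFP without cKO-GFP replicate 3 or with no low-count filter (adjusted p = 0.0900 and 0.0570). Kcnb2 came to a log2 fold change in cKO-mNLS against cKO-GFP of 4.53 in limma voom and 4.19 without cKO-GFP replicate 2.

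Of 9 tested silent subunit genes, whose products join Kcnb channels and change their gating, 6 rose against cKO-GFP and 5 against NC-GFP, all at low counts. Kcng4, Kcns1 and Kcns3 were called in neither comparison. Kcnf1 stood at 0.376, 0.306 and 0.282 CPM in NC-GFP, at 0, 1.28 and 0.630 in cKO-GFP and at 6.50, 16.997, 7.203 and 5.47 in cKO-mNLS, all 4 cKO-mNLS libraries above the rest (log2 fold change of 3.83, SE 0.806, adjusted p = 0.0159; 4.78, SE 0.872, adjusted p = 0.00855 against NC-GFP). Kcng1 stood at 0, 0.613 and 0 CPM in NC-GFP, at 0, 0.160 and 0.394 in cKO-GFP and at 5.60, 12.3, 4.02 and 1.11 in cKO-mNLS (4.95, SE 1.25, adjusted p = 0.0328; 4.69, SE 1.25, adjusted p = 0.0472). Kcng3 had 3 counts over the cKO-GFP group and 190 in cKO-mNLS, a ratio of 48.5 with a counting interval of 16.4 to 237 (adjusted p = 0.0174). Kcng2 was also called against cKO-GFP (adjusted p = 0.0340), although cKO-mNLS replicate 4, at 0.214 CPM, lies within cKO-GFP. Kcns2 had 1 count in NC-GFP and 366 in cKO-mNLS, a ratio of 241 with a counting interval of 42.96 to 9539 (adjusted p = 0.00336). Kcnv1 was at 0 in all NC-GFP libraries and at 2.57, 11.0, 4.79 and 5.18 CPM in cKO-mNLS, at least 125-fold higher taking 3 counts in the whole NC-GFP group as the floor (adjusted p = 0.00332). Intervals and floors cover counting error only. Kcns3, the Kcns gene of highest mean TPM, was not called (log2 fold change of 1.12, SE 0.754, adjusted p = 0.369). Kcnf1, Kcns2 and Kcnv1 were not called in cKO-mNLS against cKO-GFP without cKO-GFP replicate 3 (adjusted p = 0.0832, 0.0509 and 0.0666). Kcng1 was not called in cKO-mNLS against cKO-GFP without cKO-GFP replicates 1, 2 or 3 or cKO-mNLS replicates 1 or 2 or with no low-count filter (adjusted p from 0.0501 to 0.118). Kcng2 was not called in cKO-mNLS against cKO-GFP without cKO-GFP replicates 1 or 3 or cKO-mNLS replicates 1 or 3 or in limma voom or in a fit of the 2 groups alone (adjusted p from 0.0537 to 0.138). Kcng3 was not called in cKO-mNLS against cKO-GFP without cKO-GFP replicates 1 or 3 (adjusted p = 0.0526 and 0.0832). Kcnf1 came to a log2 fold change in cKO-mNLS against cKO-GFP of 6.14 in limma voom and 4.92 without cKO-GFP replicate 2, Kcng1 to 5.87 in limma voom, 6.20 without cKO-GFP replicate 3 and 4.32 without cKO-mNLS replicate 2, Kcng2 to 5.55 without cKO-GFP replicate 2 and 3.42 without cKO-mNLS replicate 3, Kcng3 to 6.30 without cKO-GFP replicate 1, Kcns2 to 5.64 in limma voom, and Kcnv1 to 6.01 in limma voom. Kcng1 was not called in cKO-mNLS against NC-GFP without NC-GFP replicates 1 or 3, cKO-GFP replicates 2 or 3 or cKO-mNLS replicates 1, 2 or 3 or with no low-count filter (adjusted p from 0.0572 to 0.159). Kcng3 was not called in cKO-mNLS against NC-GFP without NC-GFP replicates 1 or 2 or cKO-mNLS replicates 1, 2 or 3 (adjusted p from 0.0536 to 0.118). Kcng1 came to a log2 fold change in cKO-mNLS against NC-GFP of 5.89 in limma voom and 4.03 without cKO-mNLS replicate 2, and Kcng3 to 4.12 without NC-GFP replicate 2. Without NC-GFP replicate 2, which holds every NC-GFP count of Kcng1, the fitted log2 fold change was 10.19 (adjusted p = 0.0259) and depends on the prior count. Without NC-GFP replicate 3, which holds every NC-GFP count of Kcng3, the fitted log2 fold change was 8.60 (adjusted p = 0.0215) and depends on the prior count.

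Kcnc genes encode fast channels that shorten action potentials. Kcnc1 and Kcnc4 rose against cKO-GFP, and Kcnc1 and Kcnc2 against NC-GFP. Kcnc1 stood at 3.55, 3.68 and 4.41 CPM in NC-GFP, at 1.58, 4.51 and 5.32 in cKO-GFP and at 18.9, 38.8, 33.3 and 9.47 in cKO-mNLS, with the 4 cKO-mNLS libraries highest (log2 fold change of 2.72, SE 0.472, adjusted p = 0.00626; 2.69, SE 0.475, adjusted p = 0.00632 against NC-GFP). Kcnc4 had a different order, at 4.01, 5.17 and 5.42 CPM in NC-GFP, at 0.808, 0.958 and 1.61 in cKO-GFP and at 7.197, 17.7, 11.1 and 3.82 in cKO-mNLS. The cKO-GFP libraries are the lowest of all, and NC-GFP and cKO-mNLS overlap (log2 fold change of 3.14, SE 0.473, adjusted p = 0.00332; -2.11, SE 0.506, adjusted p = 0.0696 in cKO-GFP against NC-GFP). Kcnc2 stood at 0, 0 and 0.339 CPM in NC-GFP, at 0.281, 0.479 and 0.197 in cKO-GFP and at 1.01, 4.59, 1.73 and 1.14 in cKO-mNLS, with 6 counts over NC-GFP, all of them in replicate 3, and 202 over cKO-mNLS (log2 fold change of 4.32, SE 1.16, adjusted p = 0.0430 against NC-GFP). Kcnc2 was not called in cKO-mNLS against NC-GFP without NC-GFP replicates 1 or 2, cKO-GFP replicates 1, 2 or 3 or cKO-mNLS replicates 2 or 3 or in a fit of the 2 groups alone (adjusted p from 0.0520 to 0.128). Kcnc2 came to a log2 fold change in cKO-mNLS against NC-GFP of 3.71 without NC-GFP replicate 2 and 3.59 without cKO-mNLS replicate 2. Without NC-GFP replicate 3, which holds every NC-GFP count of Kcnc2, the fitted log2 fold change was 8.77 (adjusted p = 0.0141) and depends on the prior count.

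Kcnd genes encode the A-type channels of dendrites, and Kcnip genes encode calcium-binding proteins that bring them to the membrane and tune them. Kcnd2 and Kcnd3 and 3 of the 4 Kcnip genes rose against cKO-GFP, while Kcnd1 was lower in cKO-mNLS than in NC-GFP. Kcnd2 stood at 10.4, 11.9 and 15.9 CPM in NC-GFP, at 2.18, 4.19 and 6.18 in cKO-GFP and at 18.4, 28.7, 21.9 and 10.01 in cKO-mNLS, lowest in the 3 cKO-GFP libraries (log2 fold change of 2.24, SE 0.383, adjusted p = 0.00521). Kcnd3 stood at 2.92, 5.13 and 4.18 CPM in NC-GFP, at 1.90, 4.79 and 2.68 in cKO-GFP and at 23.0, 28.0, 20.1 and 9.94 in cKO-mNLS (2.70, SE 0.387, adjusted p = 0.00270; 2.31, SE 0.386, adjusted p = 0.00417 against NC-GFP). Kcnd1 stood at 12.6, 17.9 and 14.97 CPM in NC-GFP, at 13.95, 9.06 and 12.5 in cKO-GFP and at 5.32, 9.36, 8.81 and 7.94 in cKO-mNLS, and each cKO-mNLS library lies below each NC-GFP library (log2 fold change of -0.95, SE 0.249, adjusted p = 0.0288). Kcnip2 stood at 0.961, 0.306 and 0.339 CPM in NC-GFP, at 0.141, 0.878 and 0.197 in cKO-GFP and at 5.28, 10.6, 15.9 and 7.29 in cKO-mNLS (4.59, SE 0.655, adjusted p = 0.00308; 4.17, SE 0.647, adjusted p = 0.00359 against NC-GFP). Kcnip4 lay at 0 to 0.433 CPM in the 6 libraries given GFP alone and at 2.29, 10.4, 7.61 and 4.61 in cKO-mNLS (5.06, SE 0.865, adjusted p = 0.00603). Kcnip3, also known as a calcium-regulated transcription repressor, had the highest TPM of them and stood at 20.7, 24.9 and 19.8 CPM in NC-GFP, at 9.84, 8.90 and 14.7 in cKO-GFP and at 19.8, 26.4, 30.4 and 19.7 in cKO-mNLS. It was lowest in cKO-GFP, and cKO-mNLS and NC-GFP overlap (1.11, SE 0.226, adjusted p = 0.00917 against cKO-GFP). Kcnip2 came to a log2 fold change in cKO-mNLS against cKO-GFP of 5.29 in limma voom and 5.88 without cKO-GFP replicate 2, and Kcnip4 to 6.41 in limma voom and 6.69 without cKO-GFP replicate 3. Kcnd1 was not called in cKO-mNLS against NC-GFP without NC-GFP replicates 2 or 3 or cKO-mNLS replicates 1 or 4 (adjusted p from 0.0516 to 0.144). Kcnip4 was not called in cKO-mNLS against NC-GFP without NC-GFP replicate 3 (adjusted p = 0.0525). Kcnip2 came to a log2 fold change in cKO-mNLS against NC-GFP of 4.93 without NC-GFP replicate 1.

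The Kcnq genes carry the M-current, a slow current that muscarinic receptors close. Kcnq3 was already high without the mNLS vector, at 109.9, 70.9 and 94.8 CPM in NC-GFP, at 40.9, 80.1 and 37.1 in cKO-GFP and at 67.2, 101, 121 and 105 in cKO-mNLS, and the groups overlap (0.91, SE 0.280, adjusted p = 0.0524). In TPM it stood at 5.51 ± 2.23 (SD, n = 3) in NC-GFP and at 5.98 ± 1.14 (SD, n = 4) in cKO-mNLS. Kcnq5 stood at 0.0836, 1.42 and 0.113 CPM in NC-GFP, at 1.16, 1.99 and 1.81 in cKO-GFP and at 9.91, 19.2, 8.89 and 4.93 in cKO-mNLS and rose (2.70, SE 0.717, adjusted p = 0.0374 against cKO-GFP; 4.25, SE 0.773, adjusted p = 0.00850 against NC-GFP). Kcnq1, which overlaps the antisense gene Kcnq1ot1 in 3.0% of its exonic bases, reached 0.869 CPM at most. Kcnq5 was not called in cKO-mNLS against cKO-GFP without cKO-GFP replicates 1, 2 or 3 or cKO-mNLS replicates 1, 2 or 3 or with no low-count filter (adjusted p from 0.0551 to 0.134). Kcnq5 came to a log2 fold change in cKO-mNLS against NC-GFP of 5.09 in limma voom and 6.75 without NC-GFP replicate 2.

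TDP-43 is known to bind runs of UG in RNA, so the longest coding transcript of each gene was searched for runs of alternating T and G of at least 12 bases (GENCODE vM21, DNA letters). Such a run was found in 6 of the 93 (6.45%) and in 6.59% of 21901 coding genes. All 6 runs lie in the 3′ untranslated region, those of Kcna4, Kcnj5, Kcnk9 and Kcnmb1 among them. Stretches of at most 30 bases are printed for 2 genes that rose in cKO-mNLS, with the run in capitals; they start at base 10540 of the transcript of Kcnk9 and 3471 of Kcna4.
Kcnk9: taacTGTGTGTGTGTGTGTGTGTGTttgt
Kcna4: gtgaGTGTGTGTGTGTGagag
A match is a description of the sequence and does not show binding. Of the 6 genes, Kcnj5 was too low to test and Kcnmb1 was not called.

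Kcnh genes encode the channels of the ether-a-go-go family, and 5 of 7 tested rose against cKO-GFP and against NC-GFP (Kcnh1, Kcnh2, Kcnh3, Kcnh5 and Kcnh7). Kcnh1 stood at 1.42, 0.728 and 0.791 CPM in NC-GFP, at 1.34, 8.22 and 6.38 in cKO-GFP and at 47.3, 40.0, 31.8 and 24.3 in cKO-mNLS. All 4 cKO-mNLS libraries are the highest, and cKO-GFP replicates 2 and 3 lie above NC-GFP (log2 fold change of 2.76, SE 0.470, adjusted p = 0.00603; 5.18, SE 0.526, adjusted p = 7.19e-04 against NC-GFP; 2.42, SE 0.562, adjusted p = 0.0616 in cKO-GFP against NC-GFP). Kcnh2, also the pore of the rapid delayed rectifier of the heart, stood at 2.21, 0.843 and 0.960 CPM in NC-GFP, at 1.76, 3.35 and 2.95 in cKO-GFP and at 18.2, 9.46, 8.65 and 8.76 in cKO-mNLS (2.07, SE 0.418, adjusted p = 0.0102; 3.06, SE 0.430, adjusted p = 0.00192). Kcnh3, a forebrain channel, stood at 0, 0.0766 and 0.508 CPM in NC-GFP, at 0.808, 1.88 and 0.945 in cKO-GFP and at 3.75, 18.2, 7.002 and 6.47 in cKO-mNLS (2.87, SE 0.736, adjusted p = 0.0326; 5.61, SE 0.909, adjusted p = 0.00385). Kcnh7 rose by 3.98 and 3.32, and Kcnh5 by 2.83 and 3.85, on the log2 scale. Kcnh3 was not called in cKO-mNLS against cKO-GFP without cKO-GFP replicates 1 or 3 or cKO-mNLS replicate 2 (adjusted p = 0.121, 0.141 and 0.0889). Kcnh5 was not called in cKO-mNLS against cKO-GFP without cKO-GFP replicates 1 or 3 (adjusted p = 0.0659 and 0.0879). Kcnh7 was not called in cKO-mNLS against cKO-GFP without cKO-GFP replicate 3 or with no low-count filter (adjusted p = 0.0672 and 0.0524). Kcnh1 came to a log2 fold change in cKO-mNLS against cKO-GFP of 3.52 in limma voom, Kcnh3 to 2.28 without cKO-mNLS replicate 2, Kcnh5 to 3.60 without cKO-GFP replicate 2, and Kcnh7 to 4.92 without cKO-GFP replicate 2. Kcnh7 was not called in cKO-mNLS against NC-GFP without NC-GFP replicates 2 or 3 or with no low-count filter (adjusted p = 0.0854, 0.0856 and 0.106). Kcnh2 came to a log2 fold change in cKO-mNLS against NC-GFP of 3.68 without NC-GFP replicate 1, Kcnh3 to 5.01 without NC-GFP replicate 1, 7.63 without NC-GFP replicate 3 and 4.96 without cKO-mNLS replicate 2, and Kcnh7 to 4.83 without NC-GFP replicate 1.

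Inward rectifiers (Kcnj) hold the resting potential, and 6 of 12 tested rose against cKO-GFP and against NC-GFP: Kcnj3, Kcnj4, Kcnj6, Kcnj9, Kcnj11 and Kcnj13. Kcnj3, Kcnj6 and Kcnj9 form the G-protein-gated channels through which transmitters silence neurons, Kcnj4 is a strong rectifier of forebrain neurons, and Kcnj11 is the neuronal pore closed by ATP. Kcnj13 is an epithelial channel known from the choroid plexus, which makes cerebrospinal fluid. Promoter windows are shown for Kcnj4 and Kcnj13, which had the largest fold change and the highest level in cKO-mNLS of the subfamily. They are 300-base windows around the start of transcription (RefSeq, GRCm38.p6), at chr15:79505192-79505491, minus strand, and chr1:87394680-87394979, minus strand, with CG pairs in capitals.
Kcnj4: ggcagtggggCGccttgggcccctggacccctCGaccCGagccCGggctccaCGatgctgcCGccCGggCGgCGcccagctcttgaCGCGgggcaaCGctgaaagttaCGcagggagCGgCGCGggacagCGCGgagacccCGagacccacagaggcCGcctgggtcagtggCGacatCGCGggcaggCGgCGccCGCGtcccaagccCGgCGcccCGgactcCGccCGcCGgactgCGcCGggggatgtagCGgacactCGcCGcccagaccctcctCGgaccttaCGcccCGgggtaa
Kcnj13: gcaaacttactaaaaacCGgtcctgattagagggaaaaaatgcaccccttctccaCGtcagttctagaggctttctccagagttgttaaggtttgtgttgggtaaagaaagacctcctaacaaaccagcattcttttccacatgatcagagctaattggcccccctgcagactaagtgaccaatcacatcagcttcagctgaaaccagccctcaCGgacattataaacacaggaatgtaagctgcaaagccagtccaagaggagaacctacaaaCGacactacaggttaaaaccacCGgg
Kcnj4 holds 41 CG pairs and Kcnj13 holds 5. RefSeq gave 93 such windows for 68 of the channel genes, with a median of 9, and the median of 21263 windows of protein-coding genes was 13. The letters TATAAA, searched on both strands, occur in the window of Kcnj13, in 5.38% of the channel windows and in 13.62% of all windows.

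Kcnj4 stood at 0.0836, 0.0766 and 0 CPM in NC-GFP, at 0.0351, 0.239 and 0.0788 in cKO-GFP and at 5.18, 9.55, 7.77 and 2.93 in cKO-mNLS. The 6 libraries given GFP alone held at most 0.239 CPM (log2 fold change of 5.72, SE 0.725, adjusted p = 0.00187; 6.67, SE 0.897, adjusted p = 9.08e-04 against NC-GFP). Kcnj3 stood at 1.59, 0.613 and 0.791 CPM in NC-GFP, at 1.30, 4.47 and 1.42 in cKO-GFP and at 20.9, 38.4, 31.1 and 11.8 in cKO-mNLS (3.42, SE 0.507, adjusted p = 0.00356; 4.67, SE 0.543, adjusted p = 0.00112); a gene on the other strand overlaps 31.1% of its exonic bases. Kcnj6 stood at 0.710, 0.460 and 0.226 CPM in NC-GFP, at 0.527, 2.79 and 1.69 in cKO-GFP and at 15.7, 28.1, 21.3 and 5.08 in cKO-mNLS (3.39, SE 0.597, adjusted p = 0.00719; 5.19, SE 0.673, adjusted p = 0.00157). In all 3 genes the cKO-mNLS libraries lie above the others, with replicate 2 highest and replicate 4 lowest. Kcnj9 stood at 3.72, 3.33 and 2.15 CPM in NC-GFP, at 0.984, 2.67 and 2.76 in cKO-GFP and at 9.04, 38.5, 15.7 and 11.8 in cKO-mNLS (3.13, SE 0.507, adjusted p = 0.00477; 2.60, SE 0.503, adjusted p = 0.00996). Kcnj11 lay at 0 to 0.315 CPM in the groups given GFP alone and at 1.95, 5.57, 3.30 and 1.57 in cKO-mNLS (3.73, SE 0.717, adjusted p = 0.00945; 5.54, SE 0.909, adjusted p = 0.00281). Kcnj3 came to a log2 fold change in cKO-mNLS against cKO-GFP of 4.29 without cKO-GFP replicate 2, Kcnj4 to 6.76 without cKO-GFP replicate 2, and Kcnj6 to 4.05 without cKO-GFP replicate 2. Kcnj9 was not called in cKO-mNLS against NC-GFP without NC-GFP replicate 3 (adjusted p = 0.0571). Kcnj9 came to a log2 fold change in cKO-mNLS against NC-GFP of 1.97 without cKO-mNLS replicate 2, and Kcnj11 to 4.95 without NC-GFP replicate 2.

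Kcnj13 rose with Kcne2, an accessory subunit that the choroid plexus also uses. Kcnj13 stood at 3.93, 1.26 and 1.81 CPM in NC-GFP, at 4.29, 18.5 and 10.7 in cKO-GFP and at 80.4, 31.0, 43.4 and 42.9 in cKO-mNLS. The groups do not overlap, and replicate 1 is the highest, not replicate 2 as for most risen genes (log2 fold change of 2.15, SE 0.485, adjusted p = 0.0178 against cKO-GFP; 4.40, SE 0.515, adjusted p = 0.00125 against NC-GFP; 2.25, SE 0.550, adjusted p = 0.0765 in cKO-GFP against NC-GFP). Kcne2 stood at 4.64, 0.613 and 3.22 CPM in NC-GFP, at 5.31, 25.2 and 15.7 in cKO-GFP and at 97.97, 46.4, 30.6 and 69.1 in cKO-mNLS, likewise highest in replicate 1 (1.99, SE 0.612, adjusted p = 0.0619 against cKO-GFP; 4.44, SE 0.648, adjusted p = 0.00378 against NC-GFP). Of 9 choroid plexus markers, chosen after their values were seen, 7 rose in cKO-mNLS against cKO-GFP and 9 against NC-GFP. None was at 0 in every library of a group, and their summed level was 267 to 595 CPM across NC-GFP, 539.7 to 2637 across cKO-GFP and 4710.5 to 11573 across cKO-mNLS, highest in cKO-mNLS replicate 1 at 11573. Their part in the result was not tested. Gigyf2, on the other strand, overlaps 49.1% of the exonic bases of Kcnj13. Its level was 88.0 ± 9.83 CPM (SD, n = 3), 88.3 ± 6.95 (n = 3) and 95.1 ± 1.63 (n = 4) in NC-GFP, cKO-GFP and cKO-mNLS (0.11, adjusted p = 0.619, against NC-GFP). Kcnj13 was not called in cKO-mNLS against cKO-GFP without cKO-GFP replicates 1 or 3 or with no low-count filter (adjusted p = 0.0523, 0.0945 and 0.0875). Kcnj13 came to a log2 fold change in cKO-mNLS against cKO-GFP of 2.79 without cKO-GFP replicate 2. Kcnj13 came to a log2 fold change in cKO-mNLS against NC-GFP of 5.05 without NC-GFP replicate 1, and Kcne2 to 5.08 without NC-GFP replicate 1.

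**Figure D4:**
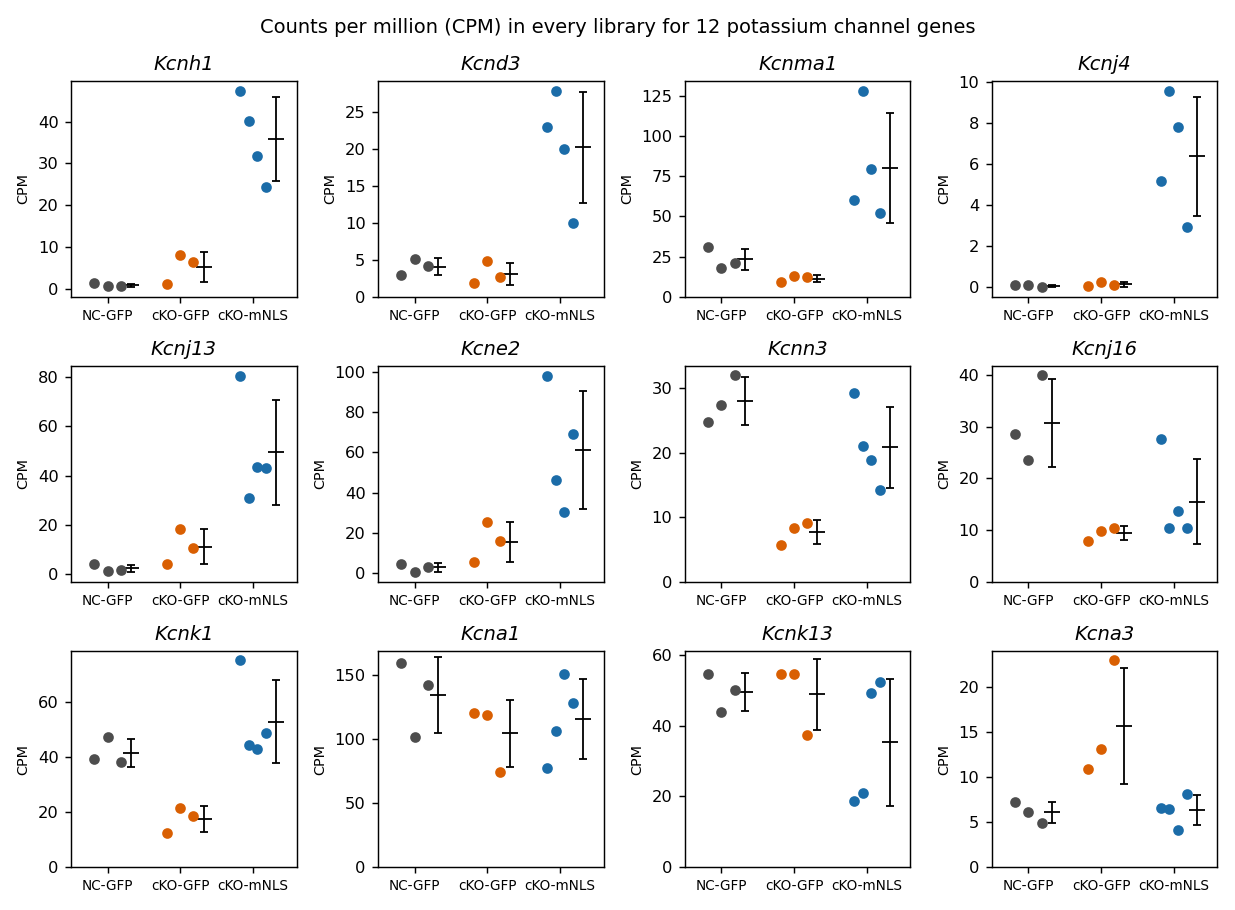
Points give CPM in each library of NC-GFP (grey, n = 3), cKO-GFP (orange, n = 3) and cKO-mNLS (blue, n = 4) for 12 genes, with the mean and SD beside them. Kcnh1, Kcnd3, Kcnma1 and Kcnj4 are high in cKO-mNLS, Kcnn3, Kcnj16 and Kcnk1 are low in cKO-GFP, Kcna3 is high in cKO-GFP, and Kcna1 and Kcnk13 overlap in all groups.

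The 4 genes that fell in cKO-GFP against NC-GFP were Kcnj16, Kcnk1, Kcnn2 and Kcnn3. Kcnj16, an inward rectifier subunit of astrocytes, stood at 28.5, 23.6 and 40.0 CPM in NC-GFP, at 7.84, 9.89 and 10.4 in cKO-GFP and at 27.6, 10.3, 13.8 and 10.3 in cKO-mNLS, with the 3 NC-GFP libraries above each cKO-GFP library (log2 fold change of -1.71, SE 0.360, adjusted p = 0.0443). Kcnk1, a leak channel of astrocytes and neurons, stood at 39.1, 47.1 and 38.0 CPM in NC-GFP, at 12.3, 21.4 and 18.4 in cKO-GFP and at 75.1, 44.3, 42.9 and 48.5 in cKO-mNLS, lowest in the 3 cKO-GFP libraries (-1.25, SE 0.249, adjusted p = 0.0328). It rose in cKO-mNLS (1.60, SE 0.233, adjusted p = 0.00252 against cKO-GFP), where it overlaps NC-GFP. Of 12 astrocyte markers, 7 fell in the same comparison (median log2 fold change -1.55), and their summed level was 4096 to 4875 CPM across NC-GFP, 1214 to 1909 across cKO-GFP and 1847 to 4471 across cKO-mNLS. In cKO-mNLS against cKO-GFP 1 of the 12 rose. None of the 12 was at 0 in every library of a group, and their part in these results was not tested.

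Kcnn2 and Kcnn3 encode small-conductance channels, which calcium opens after a spike. Kcnn3, the gene of smallest p in this comparison among the channels, is shown with its promoter window (chr3:89519914-89520213, plus strand; RefSeq, GRCm38.p6; CG pairs in capitals, 11 of them).
Kcnn3: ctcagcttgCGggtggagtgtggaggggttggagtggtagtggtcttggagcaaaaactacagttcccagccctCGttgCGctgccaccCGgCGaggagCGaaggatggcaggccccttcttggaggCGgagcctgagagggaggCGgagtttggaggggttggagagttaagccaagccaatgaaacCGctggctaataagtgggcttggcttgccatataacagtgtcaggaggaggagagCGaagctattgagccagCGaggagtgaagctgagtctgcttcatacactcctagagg
Kcnn3 stood at 24.8, 27.4 and 32.1 CPM in NC-GFP, at 5.69, 8.34 and 9.18 in cKO-GFP and at 29.3, 21.1, 18.8 and 14.2 in cKO-mNLS. Every cKO-GFP library is at or below 9.18 CPM, and cKO-mNLS overlaps NC-GFP (log2 fold change of -1.86, SE 0.269, adjusted p = 0.00821 in cKO-GFP against NC-GFP; 1.43, SE 0.252, adjusted p = 0.00506 in cKO-mNLS against cKO-GFP). Kcnn2 had the same order, at 30.6, 28.1 and 42.1 CPM in NC-GFP, at 3.69, 11.4 and 8.51 in cKO-GFP and at 28.1, 20.6, 16.5 and 11.6 in cKO-mNLS (-2.10, SE 0.392, adjusted p = 0.0282; 1.29, SE 0.368, adjusted p = 0.0398). Neither was called in cKO-mNLS against NC-GFP (adjusted p = 0.321 and 0.190). Kcnn3 was not called in cKO-GFP against NC-GFP without NC-GFP replicate 3 (adjusted p = 0.0527). Kcnn2 and Kcnk1 were not called in cKO-GFP against NC-GFP without NC-GFP replicates 1, 2 or 3 or cKO-GFP replicates 1 or 3 (adjusted p from 0.0612 to 0.140). Kcnj16 was not called in cKO-GFP against NC-GFP without NC-GFP replicates 1, 2 or 3, cKO-GFP replicates 1, 2 or 3 or cKO-mNLS replicate 3 (adjusted p from 0.0547 to 0.195). Kcnn2 was not called in cKO-mNLS against cKO-GFP without NC-GFP replicates 1, 2 or 3, cKO-GFP replicates 1 or 3 or cKO-mNLS replicates 1, 2 or 3 or with no low-count filter or in a fit of the 2 groups alone (adjusted p from 0.0503 to 0.120).

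Kcnn4, the intermediate-conductance channel of lymphocytes, red cells and activated microglia, stood at 5.93, 8.35 and 3.62 CPM in NC-GFP, at 13.5, 8.10 and 21.6 in cKO-GFP and at 4.42, 5.71, 1.25 and 3.43 in cKO-mNLS. The cKO-GFP libraries are the highest on average but their lowest lies within NC-GFP, and all are above cKO-mNLS (log2 fold change of -1.96, SE 0.482, adjusted p = 0.0189). Blood cell markers, which include lymphocytes, all fell in the same comparison (12 of 12), at 45.6 to 227 CPM across NC-GFP, 205 to 785 across cKO-GFP and 8.25 to 35.8 across cKO-mNLS. In cKO-mNLS 4 of the 12 were at 0 in every library, and their part in the result was not tested. Kcnn4 was not called in cKO-mNLS against cKO-GFP without cKO-GFP replicates 1 or 3 (adjusted p = 0.0586 and 0.131).

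The large-conductance channel Kcnma1, opened by calcium and voltage together, had the smallest p of all channel genes in cKO-mNLS against cKO-GFP. Kcnma1 (ENSMUSG00000063142.15; GRCm38/mm10 chromosome 14, 23289431 to 24014491, minus strand) stood at 30.7, 18.1 and 21.0 CPM in NC-GFP, at 8.79, 12.9 and 11.9 in cKO-GFP and at 60.5, 129, 79.5 and 52.3 in cKO-mNLS. Each cKO-mNLS library is above each other library, and cKO-GFP lies below NC-GFP (log2 fold change of 2.84, SE 0.300, adjusted p = 0.00143 against cKO-GFP; 1.79, SE 0.298, adjusted p = 0.00389 against NC-GFP; -1.05, SE 0.322, adjusted p = 0.133 in cKO-GFP against NC-GFP). Its neuronal beta subunit gene Kcnmb4 stood at 1.09, 0.613 and 0.452 CPM in NC-GFP, at 0.738, 1.04 and 1.81 in cKO-GFP and at 5.67, 12.1, 4.75 and 2.61 in cKO-mNLS (2.39, SE 0.550, adjusted p = 0.0188; 3.11, SE 0.567, adjusted p = 0.00725 against NC-GFP). An antisense gene covers 20.8% of the exonic bases of Kcnmb4. Kcnmb1, the beta subunit of smooth muscle, had 1.63 ± 1.29 CPM (SD, n = 3) in NC-GFP and 1.39 ± 0.627 (n = 4) in cKO-mNLS, with overlapping libraries. Of the sodium-activated channels, Kcnt2 stood at 0.710, 0.460 and 0.565 CPM in NC-GFP, at 0.703, 0.718 and 0.906 in cKO-GFP and at 3.79, 13.0, 9.38 and 4.15 in cKO-mNLS (3.28, SE 0.474, adjusted p = 0.00294; 3.70, SE 0.488, adjusted p = 0.00153). Kcnt1 stood at 13.2, 23.4 and 17.8 CPM in NC-GFP, at 3.62, 8.98 and 3.03 in cKO-GFP and at 11.4, 17.3, 16.0 and 6.90 in cKO-mNLS, each cKO-GFP library below each NC-GFP library without passing the test (-1.80, SE 0.438, adjusted p = 0.0729). Kcnu1, a sperm channel, and Kcnrg, a regulator of channel assembly, lay between 0 and 1.92 CPM and were not called. Kcnmb4 was not called in cKO-mNLS against cKO-GFP without cKO-GFP replicate 1 (adjusted p = 0.0776).

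Among the tandem-pore leak channels (Kcnk), which set the resting potential, 5 of 10 tested rose against cKO-GFP (Kcnk1, Kcnk2, Kcnk4, Kcnk9 and Kcnk10) and 2 against NC-GFP (Kcnk9 and Kcnk10). Kcnk9, an acid-sensitive neuronal channel, stood at 1.00, 0.421 and 0.0565 CPM in NC-GFP, at 0.246, 3.11 and 0.630 in cKO-GFP and at 9.77, 45.9, 35.4 and 11.2 in cKO-mNLS, all cKO-mNLS libraries above the rest (log2 fold change of 4.27, SE 0.839, adjusted p = 0.0140; 5.63, SE 0.947, adjusted p = 0.00642 against NC-GFP). Kcnk10 stood at 7.52, 6.66 and 4.86 CPM in NC-GFP, at 3.90, 4.47 and 3.70 in cKO-GFP and at 21.7, 12.4, 12.6 and 8.11 in cKO-mNLS (1.77, SE 0.317, adjusted p = 0.00584; 1.11, SE 0.315, adjusted p = 0.0469), and the related stretch-sensitive channel Kcnk2 at 6.23, 2.80 and 4.58 CPM in NC-GFP, at 3.16, 3.75 and 2.25 in cKO-GFP and at 10.7, 11.6, 5.07 and 6.43 in cKO-mNLS (1.46, SE 0.384, adjusted p = 0.0285). An antisense gene covers 12.2% of the exonic bases of Kcnk2. Kcnk4 had 2 counts in cKO-GFP and 91 in cKO-mNLS, a ratio of 34.9 with a counting interval of 9.38 to 292 (adjusted p = 0.0260), and shares 13.1% of its exonic bases with Catsperz on the same strand. Kcnk2 was not called in cKO-mNLS against cKO-GFP without cKO-GFP replicates 1 or 3 or cKO-mNLS replicates 1 or 2 (adjusted p from 0.0620 to 0.125). Kcnk4 was not called in cKO-mNLS against cKO-GFP without cKO-GFP replicates 2 or 3 (adjusted p = 0.0657 and 0.120). Kcnk9 was not called in cKO-mNLS against cKO-GFP without cKO-GFP replicate 3 or with no low-count filter (adjusted p = 0.0864 and 0.0739). Kcnk9 came to a log2 fold change in cKO-mNLS against cKO-GFP of 5.31 in limma voom and 5.93 without cKO-GFP replicate 2. Without cKO-GFP replicate 1, which holds every cKO-GFP count of Kcnk4, the fitted log2 fold change was 7.497 (adjusted p = 0.0421) and depends on the prior count. Kcnk10 was not called in cKO-mNLS against NC-GFP without NC-GFP replicates 1, 2 or 3, cKO-GFP replicates 1, 2 or 3 or cKO-mNLS replicates 1, 2 or 3 or in a fit of the 2 groups alone (adjusted p from 0.0547 to 0.183). Kcnk9 came to a log2 fold change in cKO-mNLS against NC-GFP of 6.23 in limma voom and 6.62 without NC-GFP replicate 1.

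Kcnk13, Kcnk6, Kcnj2 and Kcnj8 were not called in cKO-mNLS against either group. Kcnk13, the leak channel of microglia, stood at 54.7, 44.0 and 50.0 CPM in NC-GFP, at 54.8, 54.7 and 37.3 in cKO-GFP and at 18.5, 21.0, 49.3 and 52.4 in cKO-mNLS. Replicates 1 and 2 of cKO-mNLS lie below all others and replicates 3 and 4 within them (-0.47, SE 0.341, adjusted p = 0.396; -0.49, SE 0.342, adjusted p = 0.424 against NC-GFP). Kcnk6 stood at 52.3, 67.0 and 73.9 CPM in NC-GFP, at 72.1, 34.8 and 51.4 in cKO-GFP and at 43.4, 24.8, 34.1 and 41.6 in cKO-mNLS, each cKO-mNLS library below each NC-GFP library (-0.84, SE 0.253, adjusted p = 0.0515). The summed level of the microglia markers was lowest in the same cKO-mNLS replicates 1 and 2, at 4064 and 4124 CPM, and its part was not tested. Kcnj2, a widely used strong rectifier, stood at 34.4, 42.5 and 47.3 CPM in NC-GFP, at 41.5, 47.4 and 35.3 in cKO-GFP and at 26.5, 34.6, 72.6 and 58.8 in cKO-mNLS, with overlapping groups (0.22, SE 0.296, adjusted p = 0.678). Kcnj8, the ATP-closed pore of pericytes, had 5.36 ± 2.46 CPM (SD, n = 3) in NC-GFP, 3.75 ± 1.39 (n = 3) in cKO-GFP and 4.54 ± 2.69 (n = 4) in cKO-mNLS.

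**Figure D5:**
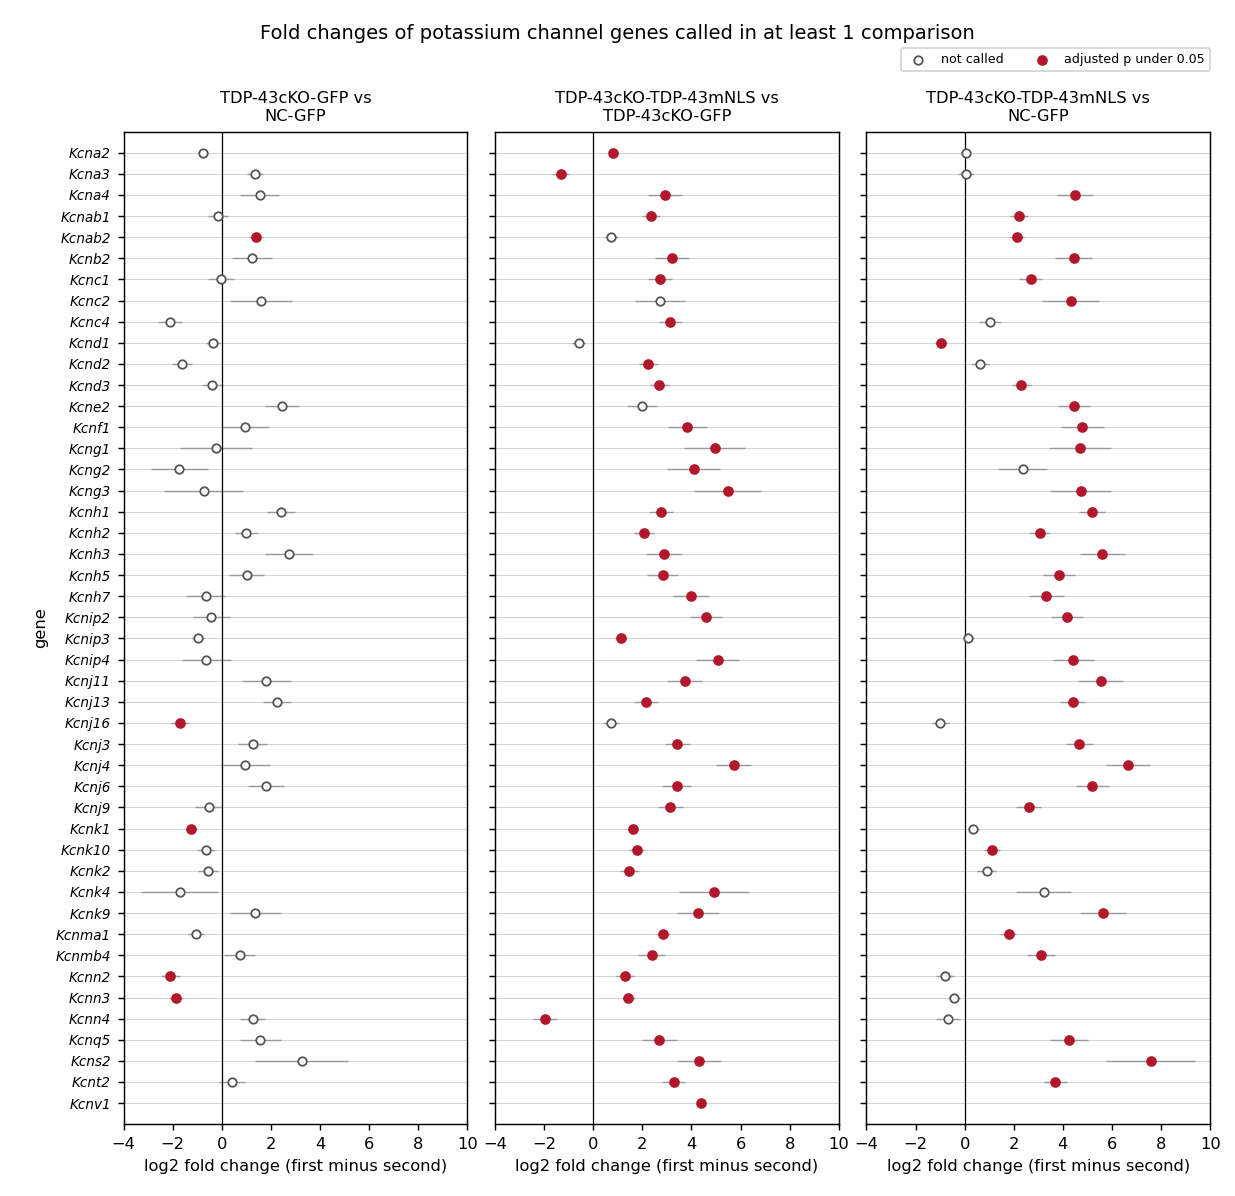
Points give the log2 fold change, first group minus second, with its SE as a line, of channel genes called in at least 1 comparison (rows) in each of the 3 comparisons (panels); red points passed an adjusted p under 0.05. Most points lie to the right of 0 in both cKO-mNLS panels, Kcna3 and Kcnn4 lie to the left against cKO-GFP, and Kcnv1 is drawn only against cKO-GFP, without SE, because NC-GFP was at 0.

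Partners and other potassium carriers moved in part with the channels. Of 17 partner proteins of voltage-gated channels, 10 rose in cKO-mNLS against cKO-GFP (median log2 fold change 0.99) and 5 against NC-GFP (0.33), beside medians over all genes of -0.01 and -0.02. Dpp6, which joins Kcnd channels, rose by 3.38 and 3.15 on the log2 scale against cKO-GFP and NC-GFP (adjusted p = 0.00246 and 0.00233). Cntnap2, which clusters Kcna channels beside the node of Ranvier, rose by 2.70 and 4.03 (adjusted p = 0.00571 and 0.00122). The scaffold gene Dlg4 rose by 1.66 and 1.32 (adjusted p = 0.00248 and 0.00520). Lgi1, a secreted ligand that binds the Kcna complex, fell in cKO-GFP against NC-GFP (log2 fold change of -1.94, SE 0.233, adjusted p = 0.00563) and rose in cKO-mNLS against cKO-GFP (1.99, SE 0.219, adjusted p = 0.00143). Of 5 genes of the hyperpolarization-activated channels, 2 rose against cKO-GFP, Hcn3 among them (1.54, adjusted p = 0.0454). Hcn3 was not called in cKO-mNLS against cKO-GFP without NC-GFP replicates 1, 2 or 3, cKO-GFP replicates 1, 2 or 3 or cKO-mNLS replicates 2, 3 or 4 or with no low-count filter or in a fit of the 2 groups alone (adjusted p from 0.0536 to 0.176). Of 4 tested among 6 genes of gamma subunits and sulfonylurea receptors, Lrrc55, a Kcnma1 partner, and Abcc8, the receptor that joins Kcnj11, rose in both comparisons (4.28 and 4.22 against cKO-GFP, adjusted p = 0.00774 and 0.0104; 5.44 and 5.98 against NC-GFP, adjusted p = 0.00369 and 0.00368). Abcc8 was not called in cKO-mNLS against cKO-GFP without cKO-GFP replicate 3 (adjusted p = 0.0561). Abcc8 came to a log2 fold change in cKO-mNLS against cKO-GFP of 6.19 in limma voom and 5.20 without cKO-GFP replicate 2. Lrrc55 came to a log2 fold change in cKO-mNLS against NC-GFP of 4.85 without NC-GFP replicate 1 and 7.89 without NC-GFP replicate 3.

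Of 14 sodium-potassium pump and cotransporter genes, 5 rose against cKO-GFP (median 0.67), and 5 rose and 1 fell against NC-GFP (0.48). The neuronal chloride exporter Slc12a5 rose by 3.79 (adjusted p = 0.00426) and the pump subunit Atp1b1 by 2.81 (adjusted p = 0.00167) on the log2 scale against cKO-GFP. The pump subunit Atp1b2, known from astrocytes, fell in cKO-GFP against NC-GFP (-1.66, adjusted p = 0.0336), the comparison in which 7 of 12 astrocyte markers fell. Of 3 intracellular potassium channel genes, Tmem38a rose in both comparisons (1.33 against cKO-GFP and 0.82 against NC-GFP, adjusted p = 0.00407 and 0.0369). Atp1b2 was not called in cKO-GFP against NC-GFP without NC-GFP replicates 1, 2 or 3 or cKO-GFP replicates 1 or 3 or with no low-count filter (adjusted p from 0.0696 to 0.170). Tmem38a was not called in cKO-mNLS against NC-GFP without NC-GFP replicates 1 or 3 or cKO-mNLS replicates 1, 2 or 3 or with no low-count filter (adjusted p from 0.0600 to 0.130).

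The remaining tested genes passed no test and lay low. Kcnk3, Kcnk12, Kcnj12, Kcnj14, Kcnj15, Kcna5, Kcnab3, Kcne1l, Kcne4, Kcng4, Kcnh4, Kcnh8, Kcnip1, Kcnn1 and Kcns1 reached at most 5.01 CPM in any library. Kcnk5 was lower in each cKO-mNLS library than in each of the other 6, at 0.243, 1.92, 0.121 and 1.501 CPM against 2.42 to 5.67, without passing the test (-2.25, SE 0.739, adjusted p = 0.0607). Of the 14 untested genes, Kcna10, Kcnk15 and Kcnmb3 had no count in any library. The other 11 were Kcna7, Kcne1, Kcne3, Kcnh6, Kcnj1, Kcnj5, Kcnk7, Kcnk16, Kcnk18, Kcnmb2 and Kcnv2, with at most 57 counts over the 10 libraries.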

How the data were processed

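RNA was measured in 10 libraries of sorted cells (3, 3 and 4 in NC-GFP, cKO-GFP and cKO-mNLS). The authors deposited 1 table with estimated counts and TPM per gene and library. Per the submitters' processing notes, DRAGEN was used with the build GRCm38/mm10. The sources used here do not give its version, the annotation release, the counting settings or the handling of strand. The deposited expected counts were rounded (5.84% were not whole) and tested with edgeR 4.0.16 in R 4.3.3: TMM scaling, filterByExpr by group, 1 robust quasi-likelihood model of the 3 groups (7 residual degrees of freedom), and Benjamini-Hochberg adjustment over all 20379 genes tested. Every adjusted p in the text comes from this test unless another tool is named, and called means an adjusted p under 0.05. Fold changes are log2, the first group named minus the second, with the SE of the fitted model. TPM, as the authors deposited them, served only to compare levels between genes.

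Full statistics were given for called genes whose log2 fold change was 1 or more in size, up to the 20 of smallest p in a comparison, for the gene of highest mean TPM in each subfamily, and for 10 genes known from non-neuronal brain cells. A few of these genes are counted but not reported here by name. Other channel genes with statistics were added after their values were seen. Alternatives were DESeq2 1.42.0, limma 3.58.1 voom, DESeq2 size factors, other filters on low counts, a fit of the 2 groups compared, the replicate number as a block, and leaving out each library. Coordinates and exon overlaps come from the GENCODE annotation of GRCm38, and promoter windows from RefSeq. The main model was tested on simulated data, with changes set in genes above a mean of 1 CPM. In cKO-GFP against NC-GFP, 19% of changes of 1 on the log2 scale and 65% of changes of 2 were called. These were 17% and 64% in cKO-mNLS against cKO-GFP, and 31% and 71% against NC-GFP. Unchanged genes made up 5.62%, 3.57% and 7.27% of the calls in these comparisons. A gene that was not called may therefore still differ. The simulation changed a far smaller share of genes than was called in cKO-mNLS against cKO-GFP (16.1%) and NC-GFP (11.5%). Its rates need not hold in those comparisons. The potassium channel genes and all lists were chosen with earlier results of these data known, and the choroid plexus, T cell and overlapping-gene lists after values were seen.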

Additional observations from a re-analysis of the deposited data

Results flagged for a closer look

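In 4 of 62 channel genes checked, 1 of the 4 cKO-mNLS libraries stood apart: its gap to the nearest library, divided by the range of the group, was above Dixon's 95% critical value for 4 values. Chance alone passes that value in about 1 in 20 groups. Kcnf1, a silent subunit, stood at 16.997 CPM in cKO-mNLS replicate 2 against 5.47 to 7.203 in the other 3 libraries. Kcnh7, of the ether-a-go-go family, stood at 44.5 CPM in the same replicate 2 against 13.3 to 17.9 in the others. Kcnh2 stood at 18.2 CPM in replicate 1 against 8.65 to 9.46 in the others. Kcnj8, the pore of pericytes, which was called in no comparison, stood at 8.57 CPM in replicate 3 against 2.93 to 3.44 in the others.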

How the results depend on the processing

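The 5 calls in cKO-GFP against NC-GFP were the least stable: DESeq2 gave 17 (7 higher and 10 lower), limma voom 11 (2 and 9), a fit of these 2 groups 11 (2 and 9) and no low-count filter 9 (2 and 7), and leaving out 1 library gave 0 to 8, with none of the 5 kept in every such fit. Against cKO-GFP, the 44 calls in cKO-mNLS became 31 to 50 under other tools, scalings and filters and 24 to 46 with 1 library left out, and 23 were kept in every such fit. Against NC-GFP, the 36 calls became 23 (22 higher and 1 lower) when only genes of at least 1 CPM in at least 6 libraries were tested, where fewer channel genes are tested, 35 to 42 under the other settings and 30 to 37 with 1 library left out, with 28 kept in every such fit. The cause of the other changes was not tested. Shares of all genes called under these settings are not given here. From the channel counts alone, a change across the whole table cannot be told from one in the channel genes. Without the filter the median of all genes moved from -0.01 to 0.14 in cKO-mNLS against cKO-GFP. All 115 called fold changes of named genes kept their direction in every alternative, 42 lost their call in at least 1, and 28 others gained one; 33 uncalled ones changed sign without a call.

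Replicate numbers are shared by the groups. Deviations from the group means correlated between libraries of 1 number at r of -0.25 to 0.09 across genes. In cKO-mNLS against NC-GFP these r were small but all positive (0.0567 to 0.0913). There every library of numbers 1 to 3 correlated best with its own number, which did not hold in the other comparisons. With the number as a replicate block there were 5, 43 and 35 calls, of which 2, 40 and 34 were among the 5, 44 and 36. The gene-by-gene accounts above of lost calls and shifted fold changes leave this model out. In it Kcnk1, Kcnn2, Kcnj16 and Atp1b2 lost their call in cKO-GFP against NC-GFP (adjusted p from 0.0608 to 0.108). In cKO-mNLS, Kcna2, Kcnj13, Kcnk4, Kcnn4 and Hcn3 lost theirs against cKO-GFP (0.0616 to 0.124). Kcnc2 and Kcnd1 lost theirs against NC-GFP (0.0854 and 0.0874). Expected counts of the low genes limit the precision: with 3 counts or fewer in a group a ratio has a wide counting interval.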

Other observations

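Kcnq1ot1, a long RNA antisense to Kcnq1 and not protein-coding, stood at 322, 247 and 325 CPM in NC-GFP, at 135, 254 and 148 in cKO-GFP and at 402, 394, 317 and 258 in cKO-mNLS. It was higher in each cKO-mNLS library than in any cKO-GFP library, by 0.94 on the log2 scale (adjusted p = 0.0229). Against NC-GFP its groups overlap (0.20, adjusted p = 0.665).

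Of 10 markers of dentate granule neurons, 4 rose in cKO-mNLS against cKO-GFP and 4 against NC-GFP. Of 10 markers of inhibitory neurons, 8 were tested and 2 fell in each of these comparisons. Of 10 markers of oligodendrocyte precursors, 2 fell against cKO-GFP, and 1 rose and 1 fell against NC-GFP, while 2 rose and 1 fell in cKO-GFP against NC-GFP. None of 12 oligodendrocyte or 12 vascular markers was called in any of the 3 comparisons.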
